A study of Arabidopsis thaliana with 18 samples.

Results

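Seedlings of the Arabidopsis thaliana line sob3-6 were compared between 2 times of one short day, ZT9 and ZT4, where ZT counts the hours since the lights came on. The comparison rests on 6 of the 18 RNA-seq libraries of the study, chosen by their genotype and time labels: 3 replicates at ZT9 and 3 at ZT4. All seedlings were in the Columbia (Col-0) background and were grown on MS medium with sucrose at 22 °C. They had 8 h of white fluorescent light and 16 h of dark. Those harvested at ZT9 and ZT4 were 5 days old. The ZT9 seedlings had been in the dark for 1 h and the ZT4 seedlings were in the light. Each library came from a pool of 20 to 35 whole seedlings, and replicates came from different plates, so p-values measure the spread between pools from different plates. SOB3-D is an activation-tagged line that overexpresses SOB3, a gene of the AHL family of transcription factors that repress elongation of the hypocotyl, the seedling stem. The sob3-6 line carries in addition a missense change in the AT-hook that SOB3 uses to bind DNA, and the submitters label it a dominant-negative mutant. Its seedlings are very tall in short days. The sister line SOB3-D at ZT9 and ZT4, with 3 libraries each, served only to ask where the change in sob3-6 differed. The plants are 1 mutant line with no wild type beside it, so the values describe that line. Light and dark, time of day and 5 h of age differ together between the 2 groups and cannot be told apart. In whole seedlings, fewer cells of a type and less RNA per cell cannot be told apart either.

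Plants keep time with a circadian clock, a loop of transcription factors that repress one another in turn through the day. CCA1 and LHY, expressed around dawn, repress the evening genes, the PRR proteins repress CCA1 and LHY from the morning to the evening, and the evening complex of ELF3, ELF4 and LUX represses PRR genes and PIF genes at night. The PIF transcription factors promote elongation and are destabilised by phytochromes in the light. Starch is made in leaves by day and broken down at night, and genes that respond to low sugar are known to come on in the dark.

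The 6 libraries held 7111636 to 8958667 mapped reads (7974199 to 8958667 at ZT9 and 7111636 to 8593805 at ZT4). Values are given in CPM, reads of a transcript for every 1000000 mapped reads of the library, and 1 read was worth 0.112 to 0.141 CPM. A floor of 3 reads, below which a level was taken as not detectable, lay between 0.335 and 0.422 CPM. The first principal component of the 6 libraries held 58.0% of the variance and separated the times, and the second separated replicate 3 of both times from the other replicates. Transcripts of the organelle genomes took 1.66% of the summed values in ZT4 replicate 1 and 0.861% to 1.09% in the other libraries. ZT4 replicate 2 was high in transcripts of seed storage proteins. CRA1, a cruciferin, had 28.4, 34.6 and 94.1 CPM in the ZT9 libraries, against 22.2, 330.0 and 20.3 CPM in the ZT4 libraries. The 6 tested members of that list summed to 43.3 to 179 CPM at ZT9 and 37.8 to 778 CPM at ZT4. None of the 6 passed the limma test (0 at an unadjusted p under 0.05, 1 with edgeR's exact test and 0 with its quasi-likelihood test or DESeq2). Of 9 root markers, 8 markers of shoot epidermis and guard cells and 5 of vascular tissue and meristem, 0 passed with limma, edgeR or DESeq2, and 0, 1 and 1 of them had an unadjusted p under 0.05 with limma. With the replicate block 1 of these markers, the guard cell gene KAT1, passed (log2 fold change -0.62, adjusted p = 0.00775). The phloem marker SUC2 and the shoot meristem marker STM were present in all 6 libraries. The markers' part in the results was not tested.

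SOB3 itself (AT1G76500) had the same mean level at both times. It was at 242, 237 and 248 CPM at ZT9, against 272, 227 and 231 CPM at ZT4. The mean was 243 ± 5.65 CPM at ZT9 and 243 ± 24.6 CPM at ZT4 (SD, n = 3 each), and the groups overlapped (log2 fold change 0.00 ± 0.10, adjusted p = 0.999). SOB3 transcript level is a check of neither the mutation nor the time labels. Of 15 clade A AHL genes, SOB3 included, 0 passed with limma, edgeR or DESeq2, and 2 had an unadjusted p under 0.05 with limma, 1 in each direction.

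The expression of many genes differed between the times. Of 20591 nuclear genes tested with limma, 3726 (18.1%) passed at an adjusted p under 0.05. Of them 2314 (11.2% of all tested) were higher and 1412 (6.86%) were lower at ZT9. The 3 libraries of one time lay apart from the 3 of the other for 3723 of the 3726. These genes were picked by the test, so their separation is not further support for it, and the share over all genes tested was not counted. At least 2-fold differences were found for 553 higher and 526 lower genes. When a gene was counted by any of its transcripts, 3776 genes (18.3%) passed, 2347 higher and 1429 lower. With TMM scaling in the same test the split between directions was 1897 higher and 1696 lower, and with DESeq2, which changes the scaling and the model together, it was 1578 higher and 1641 lower. Without ZT9 replicate 2 the count was 2373 (1371 higher and 1002 lower), and without replicate 3 of both times it was 3787. With the replicate number as a block 5313 genes passed, 3290 higher and 2023 lower.

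The genes with the largest changes were taken only from those that passed with no overlap between the times. The lack of overlap of each of them was thus fixed by the choice and is not a result. The 12 with the largest increase at ZT9 were COR27, AT1G07050, AT4G33980, COL9, BT2, COR15B, PRR3, PCC1, AT5G23240, AT1G17665, DRM2 and BOA, with log2 fold changes from 7.02 to 3.96. The 12 with the largest decrease were PRR9, CCA1, AT2G46670, LNK3, BBX25, LHY, BBX16, CIPK20, CDF3, AT1G13650, LNK2 and AT3G21670, with log2 fold changes from -4.90 to -3.46. COR27 (AT5G42900, a cold-regulated gene that feeds back on the clock) measured 131, 147 and 189 CPM in ZT9 seedlings and 0.703, 0.465 and 0.956 CPM in ZT4 seedlings. The 6 values fell into separate groups (log2 fold change 7.02 ± 0.19, adjusted p = 9.04e-07). AT1G07050 had 53.9, 56.3 and 55.6 CPM in the ZT9 libraries, against 0, 0.116 and 0.956 CPM in the ZT4 libraries. It was listed at 0 in 1 ZT4 library, and the groups did not overlap (log2 fold change 6.19 ± 0.35, adjusted p = 1.2e-05). COL9, a CONSTANS-like gene of the flowering pathway, was at 134, 144 and 170.1 CPM at ZT9, against 3.66, 2.56 and 4.3 CPM at ZT4. The ZT9 libraries were all above the ZT4 libraries (log2 fold change 5.24 ± 0.18, adjusted p = 1.29e-06). BT2, which encodes a BTB domain scaffold protein, measured 397, 401 and 439 CPM in ZT9 seedlings and 12.9, 8.15 and 14.3 CPM in ZT4 seedlings. Again the groups did not overlap (log2 fold change 5.10 ± 0.18, adjusted p = 1.84e-06). PCC1 had 9.71, 52.9 and 22.9 CPM in the ZT9 libraries, against 0.281, 3.26 and 0.239 CPM in the ZT4 libraries. The spread between its replicates was wide (log2 fold change 4.17 ± 0.72, adjusted p = 0.00462), and 23.8% of its 84-base stretches are identical to stretches of another gene. AT2G46670 was at 0.893, 1.13 and 0.25 CPM at ZT9, against 24.2, 22 and 28.6 CPM at ZT4. Most of that transcript (81.9% of its 84-base stretches) is identical to another gene's, PRR9 being its close relative, so its reads cannot be assigned with certainty. CIPK20, a protein kinase that acts with calcium sensors, measured 3.57, 5.89 and 4.5 CPM in ZT9 seedlings and 60.2, 67.8 and 112 CPM in ZT4 seedlings. All ZT9 values were below all ZT4 values (log2 fold change -3.94 ± 0.25, adjusted p = 2.08e-05).

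The morning genes of the clock were low at ZT9. Of 16 morning clock genes tested, 13 fell and 1 rose, against 6.86% and 11.2% of all genes, and the list's median log2 fold change was -2.00 against 0.06 over all genes. CCA1 (AT2G46830, TAIR10.1 chr2:19245591-19248915), a MYB factor of the morning loop, had 0.893, 0.376 and 1.37 CPM in the ZT9 libraries, against 39.4, 34.7 and 34.5 CPM in the ZT4 libraries. The ZT9 libraries were close to the floor and the groups did not overlap (log2 fold change -4.80 ± 0.26, adjusted p = 1.05e-05). Its partner LHY (AT1G01060, TAIR10.1 chr1:33365-37871) was at 1.23, 1.5 and 0.5 CPM at ZT9, against 29.4, 21.9 and 20.6 CPM at ZT4. The groups were again apart (log2 fold change -4.00 ± 0.28, adjusted p = 3.53e-05). PRR9 (AT2G46790, TAIR10.1 chr2:19232607-19235179), the first PRR repressor of the day, measured 1.56, 1.88 and 0.5 CPM in ZT9 seedlings and 47.2, 45.4 and 59.4 CPM in ZT4 seedlings. All 3 ZT9 values were far below the ZT4 values (log2 fold change -4.90 ± 0.30, adjusted p = 1.97e-05), and 24.9% of its 84-base stretches are shared with another gene. PRR7, which follows PRR9, had 103, 116 and 96.7 CPM in the ZT9 libraries, against 157, 148 and 179 CPM in the ZT4 libraries. The groups were apart and the step was small (log2 fold change -0.62 ± 0.11, adjusted p = 0.00517). Over all fits, pseudocounts of 1 and 0.1 CPM among them, the log2 fold change of CCA1 ran from -4.34 to -5.43 while its ZT9 level was near the floor.

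The LNK genes, coactivators that work with the RVE factors, fell as a group. LNK1 was at 20.2, 25.8 and 13.9 CPM at ZT9, against 133, 132 and 167 CPM at ZT4. LNK2 measured 17.7, 18.7 and 11.6 CPM in ZT9 seedlings and 186, 159 and 193 CPM in ZT4 seedlings. LNK3 had 0.781, 1 and 0.375 CPM in the ZT9 libraries, against 22.4, 21.4 and 22.7 CPM in the ZT4 libraries. LNK4 had a log2 fold change of -3.31, and all 4 LNK genes had ZT9 values below every ZT4 value (adjusted p between 6.66e-06 and 4.27e-05). RVE8, a MYB activator of evening genes, was at 0.893, 1.38 and 0.125 CPM at ZT9, against 12.9, 10.5 and 8.73 CPM at ZT4. The groups did not overlap (log2 fold change -3.23 ± 0.38, adjusted p = 0.000639). RVE4 fell less (log2 fold change -1.15 ± 0.18, adjusted p = 0.00322). RVE2 was the one morning-list gene that rose. It measured 20.5, 27.5 and 40.3 CPM in ZT9 seedlings and 4.78, 4.07 and 4.78 CPM in ZT4 seedlings. The ZT9 values lay above the ZT4 values (log2 fold change 2.52 ± 0.23, adjusted p = 0.000142). RVE1 (log2 fold change -1.10 ± 0.24, adjusted p = 0.0146), ASG4 (log2 fold change -0.95 ± 0.26, adjusted p = 0.0377) and AT4G01280 (log2 fold change -0.52 ± 0.14, adjusted p = 0.0298) passed with the 6 libraries and not in every fit with 1 library left out. The adjusted p of RVE1 was 0.0579 without ZT9 replicate 2, that of ASG4 reached 0.123 and was above 0.05 without any one of the 6 libraries, and that of AT4G01280 reached 0.107 and was above 0.05 without any one of the libraries other than ZT9 replicate 1. ASG4 missed with DESeq2 as well. RVE7 had an adjusted p of 0.0593, and 0.0107 with the replicate block. AT5G52660 had a log2 fold change of -0.01.

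The afternoon and evening genes of the clock were high at ZT9. Of 15 tested, 12 rose (80%, against 11.2% of all genes) and 0 fell (against 6.86%). The lower count was 0 also at an unadjusted p under 0.05 in limma and with edgeR and DESeq2. The median log2 fold change of the list was 3.26. TOC1 (AT5G61380, TAIR10.1 chr5:24674963-24678550), a PRR protein that represses CCA1 and LHY, had 253, 253 and 280.2 CPM in the ZT9 libraries, against 33.2, 27.9 and 26.3 CPM in the ZT4 libraries. The values of each time lay close together and far from the other time's (log2 fold change 3.15 ± 0.11, adjusted p = 1.39e-06). LUX (AT3G46640, TAIR10.1 chr3:17183042-17186959), the DNA-binding part of the evening complex, was at 136, 146 and 131 CPM at ZT9, against 14.6, 12.1 and 10.6 CPM at ZT4. The groups did not overlap (log2 fold change 3.43 ± 0.12, adjusted p = 1.86e-06), and BOA, the relative of LUX, rose as well (log2 fold change 3.96 ± 0.27, adjusted p = 2.99e-05). ELF4 measured 59.5, 65.1 and 53.1 CPM in ZT9 seedlings and 4.78, 5.7 and 6.81 CPM in ZT4 seedlings. ELF3 had 111, 114 and 117 CPM in the ZT9 libraries, against 29.5, 24.4 and 26.5 CPM in the ZT4 libraries. Both partners of LUX in the evening complex were thus higher in every ZT9 library (log2 fold change 3.26 ± 0.15, adjusted p = 4.94e-06 for ELF4 and log2 fold change 2.07 ± 0.10, adjusted p = 5.74e-06 for ELF3). PRR5 was at 85.5, 85.4 and 79.7 CPM at ZT9, against 18.3, 15.2 and 17.7 CPM at ZT4. PRR3 measured 44, 58.9 and 49.7 CPM in ZT9 seedlings and 1.27, 2.33 and 2.15 CPM in ZT4 seedlings. These PRR genes of the afternoon and evening showed no overlap (log2 fold change 2.26 ± 0.10, adjusted p = 4.94e-06 for PRR5 and log2 fold change 4.43 ± 0.21, adjusted p = 5.42e-06 for PRR3). FKF1, a blue light receptor that targets CDF repressors of flowering for breakdown, had 77.7, 76.7 and 75.6 CPM in the ZT9 libraries, against 5.48, 4.77 and 4.3 CPM in the ZT4 libraries. Its groups were apart (log2 fold change 3.86 ± 0.12, adjusted p = 1.09e-06). JMJD5, a histone demethylase of the evening clock, rose with a log2 fold change of 3.72, and AT4G33980 with one of 5.50.

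Other evening genes changed little or missed the test. GI, a scaffold for ZTL and FKF1, was at 130.5, 140.0 and 92.1 CPM at ZT9, against 79, 86.3 and 88.6 CPM at ZT4. ZT9 replicate 3 was lower than the other ZT9 libraries, though above all ZT4 libraries (log2 fold change 0.49 ± 0.15, adjusted p = 0.0572, and adjusted p = 0.0256 with the replicate block). ZTL had a log2 fold change of 0.05, with overlapping groups (adjusted p = 0.743). TCP21, also called CHE, had a log2 fold change of 0.39 ± 0.12 (adjusted p = 0.0559), and adjusted p = 0.0356 with the block. LKP2 passed (log2 fold change 0.41 ± 0.10, adjusted p = 0.0271 with limma) but not in every other fit. It missed without ZT9 replicates 1 or 2 or ZT4 replicates 1 or 2, where its adjusted p reached 0.0952. It also missed with TMM scaling, edgeR's exact test and DESeq2, and its highest adjusted p over all fits was 0.173.

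**Figure D1:**
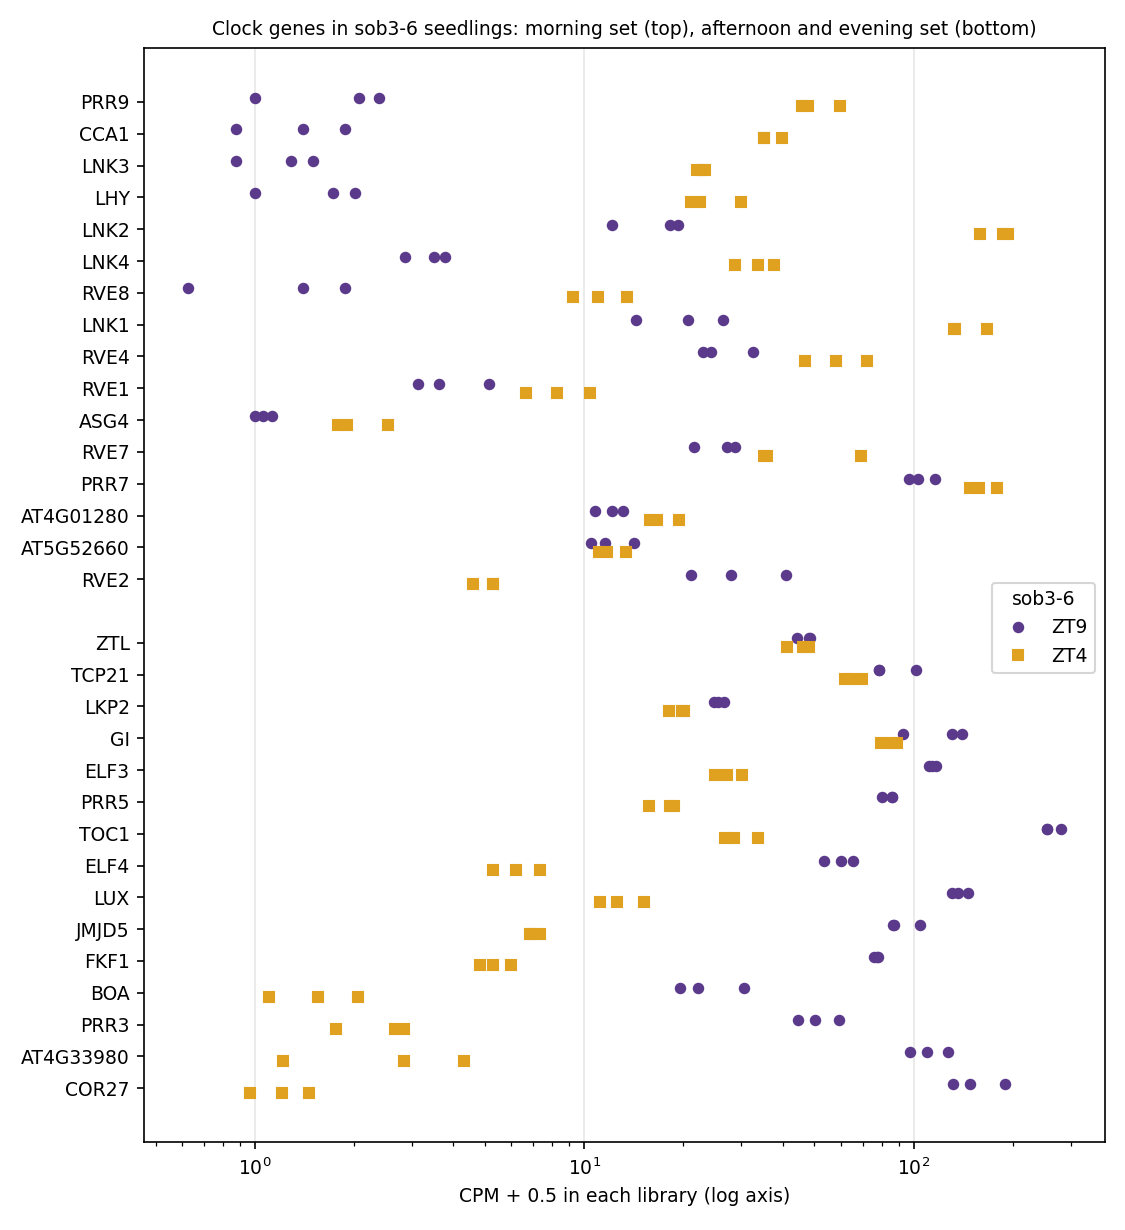
Level of each of 31 clock genes in the 6 sob3-6 libraries, in CPM + 0.5 on a log axis, with ZT9 as circles and ZT4 as squares and 1 row for each gene. CCA1 lies at 0.376 to 1.37 CPM at ZT9 and 34.5 to 39.4 CPM at ZT4, and TOC1 at 253 to 280.2 CPM at ZT9 and 26.3 to 33.2 CPM at ZT4.

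The levels at ZT4 and ZT9 in sob3-6 were set beside those at ZT24, dawn of the next day. The ZT24 seedlings were older, so age differs there as well as time of day. CCA1 averaged 36.2 ± 2.75 CPM in ZT4 seedlings, 0.881 ± 0.499 in ZT9 seedlings and 293 ± 15.3 in ZT24 seedlings (SD, n = 3 each). LHY averaged 23.9 ± 4.76, 1.08 ± 0.519 and 701 ± 50.1 CPM at the same times. TOC1 ran the other way, with 29.1 ± 3.6, 262 ± 15.5 and 23.1 ± 2.86 CPM. For CCA1 and LHY the order of the levels was thus ZT9, ZT4, ZT24, and TOC1 at ZT4 and ZT24 overlapped in mean ± SD.

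The promoters of these genes hold short elements with known clock roles. The evening element (AAAATATCT) is bound by CCA1, LHY and RVE factors, and the G-box (CACGTG) by PIF and other bHLH and bZIP factors. Both were searched on both strands in the 250 bases before and 50 bases after the start of 20513 genes, with RefSeq sequence of build TAIR10.1. These stretches from the promoters of evening genes that rose, and of the starch debranching gene ISA3, are shown because the evening element was most frequent among genes that rose by at least 2-fold, and the element is in capitals, read along the gene on the strand given.
TOC1 (chr5:24674787-24674845, + strand): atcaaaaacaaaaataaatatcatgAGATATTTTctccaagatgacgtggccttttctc
LUX (chr3:17182964-17183022, + strand): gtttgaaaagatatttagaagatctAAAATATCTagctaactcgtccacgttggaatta
FKF1 (chr1:25508428-25508486, + strand): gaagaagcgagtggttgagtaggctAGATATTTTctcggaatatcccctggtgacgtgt
PRR5 (chr5:8358700-8358758, - strand): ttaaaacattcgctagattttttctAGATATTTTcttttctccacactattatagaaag
BOA (chr5:24003820-24003878, + strand): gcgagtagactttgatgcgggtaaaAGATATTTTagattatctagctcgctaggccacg
COR27 (chr5:17199916-17199974, - strand): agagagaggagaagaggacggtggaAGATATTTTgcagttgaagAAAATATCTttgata
ISA3 (chr4:5783845-5783903, + strand): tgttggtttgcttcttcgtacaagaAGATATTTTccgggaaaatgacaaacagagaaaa
In these stretches the element stands as AAAATATCT in LUX and as its reverse complement AGATATTTT in the others, and COR27 holds it in both forms.

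The next stretches come from morning genes that fell, since 12 of the 16 morning clock genes hold a G-box in this window. The G-box is in capitals.
CCA1 (chr2:19245373-19245428, + strand): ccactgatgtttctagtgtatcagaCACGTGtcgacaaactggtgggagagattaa
LHY (chr1:37921-37976, - strand): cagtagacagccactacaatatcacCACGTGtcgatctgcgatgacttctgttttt
PRR9 (chr2:19232410-19232465, + strand): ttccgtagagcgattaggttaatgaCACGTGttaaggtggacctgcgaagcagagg
LNK3 (chr3:3923319-3923374, + strand): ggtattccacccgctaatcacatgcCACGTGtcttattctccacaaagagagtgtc
LNK3 (chr3:3923349-3923404, + strand): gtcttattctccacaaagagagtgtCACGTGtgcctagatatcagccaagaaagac
All printed stretches lie before the start of their gene, and LNK3 holds both of its G-boxes within a short distance.

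Across the genome, an evening element was found in 77 of 553 promoters of genes at least 2-fold higher at ZT9 (13.9%), in 17 of 523 of those at least 2-fold lower (3.25%) and in 617 of all 20513 (3.01%). Of genes whose promoter holds one, 26.9% rose and 5.84% fell, against 10.8% and 6.87% of genes without it. The evening clock list held it in 8 of 15 promoters, the starch breakdown list in 4 of 17, the morning clock list in 2 of 16 and the dark and carbon starvation list in 0 of 29. The G-box showed the opposite direction, with 15.9% of the promoters of genes at least 2-fold lower, 14.7% of all lower genes, 7.93% of higher genes and 8.89% of all promoters. It was in 12 of 16 morning clock promoters and 2 of 15 evening clock promoters. The telo-box (AAACCCTA) was in 1.57% of the promoters of lower genes, 4.81% of those of higher genes and 5.43% of all. The site II element (TGGGCC) was in 11.8%, 17.1% and 18.3% of the same 3 groups and the I-box (GATAAG) in 16.6%, 17.5% and 14.8%. The CCA1-binding site (AAAAATCT) was in 9.49% of lower genes, 9.71% of higher genes and 8.07% of all, so it did not separate the directions. A match is a run of letters and not a bound site.

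**Figure D2:**
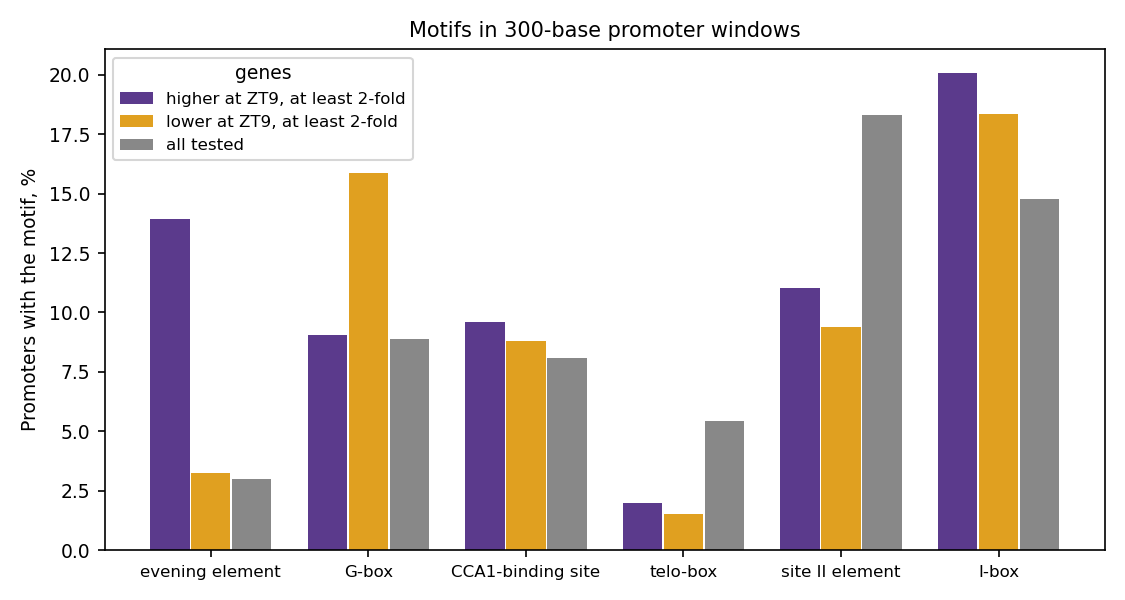
Share of promoters (percent, 250 bases before to 50 after the gene start) that hold each of 6 motifs, for genes at least 2-fold higher at ZT9, genes at least 2-fold lower at ZT9 and all genes tested. The evening element is in 13.9%, 3.25% and 3.01% of these groups and the G-box is more frequent in the lower genes.

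Genes that carry clock time into flowering and other outputs changed in both directions. Of 12 tested, 4 rose (33.3%, against 11.2% of all genes) and 6 fell (50%, against 6.86%). GRP7, an RNA-binding protein that is a clock output, measured 3933, 4093 and 4377 CPM in ZT9 seedlings and 363, 369 and 368 CPM in ZT4 seedlings. The ZT9 values were all above the ZT4 values (log2 fold change 3.49 ± 0.13, adjusted p = 2.1e-06), and its relative GRP8 rose less (log2 fold change 0.68 ± 0.11, adjusted p = 0.00301). Of the CDF repressors of flowering, CDF1 and CDF3 fell, and values of the list's other CDF genes are not given here. CDF1 was at 2.34, 3.39 and 2.12 CPM at ZT9 and 21.5, 22.1 and 26.2 CPM at ZT4. CDF3 was at 5.36, 6.4 and 5.25 CPM at ZT9 and 90.3, 85.5 and 102 CPM at ZT4. Neither gene's groups overlapped (log2 fold change -2.95 ± 0.19, adjusted p = 2.08e-05 for CDF1 and log2 fold change -3.92 ± 0.12, adjusted p = 1.09e-06 for CDF3). COL1 (log2 fold change -3.32 ± 0.19, adjusted p = 1.12e-05) and COL2 (log2 fold change -2.71 ± 0.16, adjusted p = 1.79e-05), both CONSTANS-like genes, fell too, and 95.0% of the 84-base stretches of COL1 lie opposite another transcript. CONSTANS (CO) itself rose from a level near the floor, with 1.56, 2.63 and 2.62 CPM at ZT9 against 0.703, 0.582 and 0.239 CPM at ZT4 (log2 fold change 1.46 ± 0.30, adjusted p = 0.0112). CO was not among the named genes followed through the other fits. Catalase CAT2, a morning-phased gene, fell (log2 fold change -1.61 ± 0.09, adjusted p = 1.07e-05), and CAT3, evening-phased, had a log2 fold change of 0.27 (adjusted p = 0.36). Only 2 of the 12 rose in the fit without ZT9 replicate 2.

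PIF5 and PIF7 fell at ZT9, and PIF1, PIF3 and PIF4 did not pass. Of 11 PIF and related bHLH genes tested, 1 rose (9.09%, against 11.2% of all genes) and 3 fell (27.3%, against 6.86%). PIF7 had 10.8, 12.9 and 15.4 CPM in the ZT9 libraries, against 46.7, 47.4 and 44.3 CPM in the ZT4 libraries. The groups were apart (log2 fold change -1.80 ± 0.13, adjusted p = 5.35e-05). PIF5 was at 86.5, 93.7 and 63.1 CPM at ZT9, against 177, 160.1 and 189 CPM at ZT4. Again no values overlapped (log2 fold change -1.13 ± 0.15, adjusted p = 0.00116). PIF4, the main promoter of warm-temperature elongation, measured 158, 167 and 143 CPM in ZT9 seedlings and 171, 171 and 219 CPM in ZT4 seedlings. Its ZT9 values were below all ZT4 values, but the difference did not pass the test (log2 fold change -0.25 ± 0.12, adjusted p = 0.197). PIF3 had a log2 fold change of -0.14 ± 0.29 (adjusted p = 0.779) and PIF1 a log2 fold change of -0.28 ± 0.11 (adjusted p = 0.11). PAR1, an atypical bHLH that inhibits PIFs, had 32.5, 34.7 and 31.5 CPM in the ZT9 libraries, against 9.42, 6.87 and 14.5 CPM in the ZT4 libraries. PAR1 rose without overlap (log2 fold change 1.70 ± 0.23, adjusted p = 0.00125).

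Growth genes that PIFs are known to activate fell in 11 of 23 cases at ZT9 (47.8%, against 6.86% of all genes). Of the others 1 rose (4.35% of the list, against 11.2%) and 11 did not pass, and the median log2 fold change was -0.66. The list was drawn up with earlier results of these samples known, so its direction is not independent evidence. SAUR20, a small auxin-up RNA whose group promotes cell expansion, was at 1, 1.25 and 1.87 CPM at ZT9, against 11.7, 10.2 and 12.9 CPM at ZT4. The groups did not overlap (log2 fold change -2.71 ± 0.22, adjusted p = 7.42e-05). SAUR21 (log2 fold change -2.11 ± 0.24, adjusted p = 0.000552), SAUR19 (log2 fold change -1.41 ± 0.23, adjusted p = 0.00366) and SAUR23 (log2 fold change -1.26 ± 0.24, adjusted p = 0.00673) of the same cluster fell as well. PRE1, a bHLH that promotes elongation, measured 2.68, 2.13 and 2.37 CPM in ZT9 seedlings and 9.14, 8.26 and 11.7 CPM in ZT4 seedlings. It fell without overlap (log2 fold change -1.81 ± 0.19, adjusted p = 0.000323), and PRE6 did so too (log2 fold change -1.49 ± 0.20, adjusted p = 0.00134). XTR7, a xyloglucan-modifying enzyme, had 105, 60.2 and 175 CPM in the ZT9 libraries, against 24.5, 25.9 and 17.5 CPM in the ZT4 libraries. XTR7 was the single gene of the list that rose (log2 fold change 2.19 ± 0.33, adjusted p = 0.00244), and 26.6% of its 84-base stretches lie opposite another transcript. Over the whole SAUR family, 25 of 58 tested genes fell (43.1%, against 6.86% of all genes) and 7 rose (12.1%, close to the 11.2% of all genes). The largest decrease was that of SAUR16. It was at 4.02, 5.02 and 6.87 CPM at ZT9, against 39.8, 50.5 and 64.5 CPM at ZT4. All ZT9 values were below all ZT4 values (log2 fold change -3.17 ± 0.22, adjusted p = 3.74e-05). SAUR62 (log2 fold change -2.20 ± 0.21, adjusted p = 0.000226) and SAUR63 (log2 fold change -2.20 ± 0.17, adjusted p = 5.52e-05) share 12.4% and 21.4% of their 84-base stretches with other genes. SAUR71 rose (log2 fold change 1.73 ± 0.35, adjusted p = 0.01), and without ZT9 replicate 2 only 3 SAUR genes rose.

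**Figure D3:**
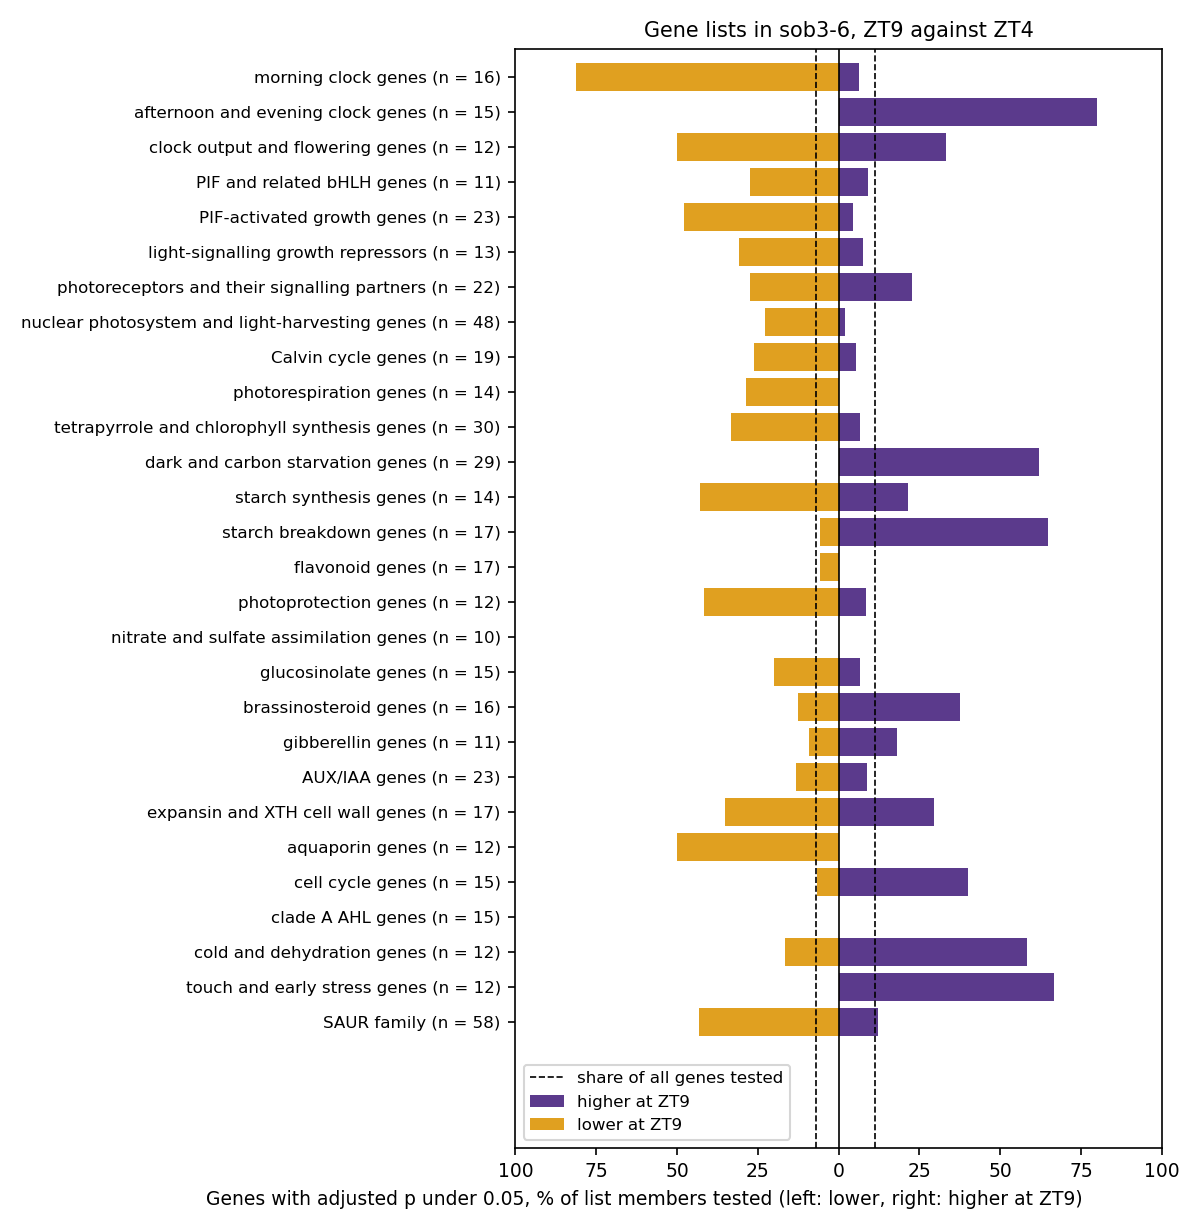
Percent of the tested members of each gene list that rose (bars to the right) or fell (bars to the left) at ZT9 in sob3-6, with dashed lines at the 11.2% and 6.86% of all 20591 genes. The evening clock list (12 of 15) reaches farthest to the right and the morning clock list (13 of 16) farthest to the left. The list labelled light-signalling growth repressors holds light-signalling genes, not all of which repress growth.

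Light-signalling genes, HY5, B-box and DELLA genes among them, changed in both directions. Of 13 tested, 4 fell (30.8%, against 6.86% of all genes) and 1 rose (7.69%, against 11.2%). The list groups genes by pathway and not all its members repress growth, so the counts do not give a direction for growth repressors. BBX24, a B-box protein of light signalling, measured 54.2, 64.2 and 62.5 CPM in ZT9 seedlings and 254, 234 and 287 CPM in ZT4 seedlings. BBX25, its nearest relative, had 0.893, 0.878 and 0.625 CPM in the ZT9 libraries, against 23.1, 22.5 and 24 CPM in the ZT4 libraries. Both fell without overlap (log2 fold change -2.09 ± 0.11, adjusted p = 8.78e-06 for BBX24 and log2 fold change -4.20 ± 0.17, adjusted p = 2.6e-06 for BBX25). BBX20 was at 12.1, 9.15 and 14.6 CPM at ZT9, against 0.703, 1.4 and 1.31 CPM at ZT4. It rose without overlap (log2 fold change 2.93 ± 0.25, adjusted p = 0.00011). HY5, the bZIP factor that promotes greening, had a log2 fold change of 0.08 ± 0.25 (adjusted p = 0.85), and the DELLA gene RGA had a log2 fold change of -0.17 ± 0.08 (adjusted p = 0.198). Without ZT9 replicate 2, and likewise without ZT4 replicate 2, 2 of the 13 fell.

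Photoreceptors and their partners changed in both directions, 5 of 22 higher (22.7%, against 11.2% of all genes) and 6 lower (27.3%, against 6.86%). SPA1, which acts with the ubiquitin ligase COP1, measured 45.4, 39 and 23.4 CPM in ZT9 seedlings and 133, 129 and 161 CPM in ZT4 seedlings. The groups were apart (log2 fold change -2.00 ± 0.22, adjusted p = 0.000421), and SPA3 fell as well (log2 fold change -1.34 ± 0.15, adjusted p = 0.000409). PHYB, the main red light receptor in light-grown plants, had 71.7, 66.6 and 63 CPM in the ZT9 libraries, against 110.4, 109 and 95 CPM in the ZT4 libraries. It fell by a small step (log2 fold change -0.64 ± 0.10, adjusted p = 0.00253). PHYA, the far-red light receptor, rose (log2 fold change 0.56 ± 0.09, adjusted p = 0.00424), and so did the blue light receptor CRY2 (log2 fold change 0.59 ± 0.11, adjusted p = 0.0059). Of the UV-B feedback genes, RUP1 rose (log2 fold change 1.05 ± 0.21, adjusted p = 0.00888) and RUP2 fell, with means of 3.00 ± 1.07 CPM at ZT9 and 7.32 ± 0.854 CPM at ZT4 (SD, n = 3 each, adjusted p = 0.00958 by limma). The higher count was 3 without ZT9 replicates 1 or 2 or ZT4 replicates 1 or 2.

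Among nuclear genes of the photosystems, a few light-harvesting genes fell far more than the rest. Of 48 tested, 11 fell (22.9%, against 6.86% of all genes) and 1 rose (2.08%, against 11.2%). Their median log2 fold change was -0.40, and with the replicate block 23 fell and 1 rose. LHCB2.3, an antenna protein of photosystem II, was at 188, 220.3 and 188 CPM at ZT9, against 1586, 1756 and 2286 CPM at ZT4. The groups were far apart (log2 fold change -3.22 ± 0.16, adjusted p = 6.38e-06), and 37.1% of its 84-base stretches lie opposite another transcript. LHCB2.1 measured 1041, 1118 and 974 CPM in ZT9 seedlings and 4128, 4167 and 4924 CPM in ZT4 seedlings. LHCB2.2 had 1079.7, 1189 and 1012 CPM in the ZT9 libraries, against 4080.4, 4097 and 4749 CPM in the ZT4 libraries. Their groups did not overlap (log2 fold change -2.07 ± 0.17, adjusted p = 8.38e-05 for LHCB2.1 and log2 fold change -1.98 ± 0.17, adjusted p = 0.000108 for LHCB2.2), and they share 12.6% and 16.7% of their 84-base stretches with other genes. LHCB4.2 fell (log2 fold change -0.80 ± 0.15, adjusted p = 0.00747), and so did PSAD-2 of photosystem I (log2 fold change -0.80 ± 0.14, adjusted p = 0.00529). LHCB3 had a log2 fold change of -0.66 ± 0.21 (adjusted p = 0.0606) without the block and adjusted p = 0.00981 with it. FNR2, ferredoxin-NADP reductase, was the gene that rose (log2 fold change 0.95 ± 0.19, adjusted p = 0.00989). Without replicate 3 of both times 20 of the 48 fell.

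Chlorophyll synthesis followed with 10 of 30 genes lower (33.3%, against 6.86% of all genes) and 2 higher (6.67%, against 11.2%). GUN4, the activator of magnesium chelatase, was at 48.2, 57.9 and 43.8 CPM at ZT9, against 240.0, 229 and 273 CPM at ZT4. The groups did not overlap (log2 fold change -2.30 ± 0.12, adjusted p = 9.39e-06), and 71.2% of its 84-base stretches lie opposite another transcript. CAO, which makes chlorophyll b, measured 56.9, 66.7 and 52.2 CPM in ZT9 seedlings and 289, 279.5 and 363 CPM in ZT4 seedlings. No ZT9 value reached a ZT4 value (log2 fold change -2.39 ± 0.13, adjusted p = 1.07e-05). HEMA1, the glutamyl-tRNA reductase of green tissue, fell (log2 fold change -1.11 ± 0.11, adjusted p = 0.000287), whereas HEMA2 rose (log2 fold change 0.92 ± 0.12, adjusted p = 0.00101). GUN5, a magnesium chelatase subunit, fell (log2 fold change -1.13 ± 0.15, adjusted p = 0.00134). The count of lower genes was 6 without ZT9 replicate 1 or ZT4 replicate 2, and that of higher genes ran from 1 (without ZT9 replicate 2 or ZT4 replicate 1) to 4 (without ZT4 replicate 3 or replicate 3 of both times).

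Carbon fixation genes were tested next. Of 19 Calvin cycle genes 5 fell (26.3%, against 6.86% of all genes) and 1 rose (5.26%, against 11.2%), with 8 lower with the block. FBA1, a plastid aldolase, had 243, 283 and 332 CPM in the ZT9 libraries, against 566, 603 and 698 CPM in the ZT4 libraries. All ZT9 values were below the ZT4 values (log2 fold change -1.12 ± 0.14, adjusted p = 0.000893). CP12-2, which binds Calvin cycle enzymes in the dark, rose (log2 fold change 0.95 ± 0.19, adjusted p = 0.00993). The lower count was 1 without ZT9 replicate 2 and 3 without ZT9 replicate 1 or ZT4 replicates 1 or 2. Of 14 photorespiration genes, 4 fell with limma (28.6%, against 6.86% of all genes) and 0 rose with limma, edgeR or DESeq2 (against 11.2%). In limma 1 was higher at an unadjusted p under 0.05, and 8 fell and 1 rose with the block. The catalase CAT2 had the largest change of them, and 1 fell without ZT9 replicate 2 and 2 without ZT9 replicate 1. Of 12 photoprotection genes, 5 fell (41.7%, against 6.86% of all genes) and 1 rose (8.33%, against 11.2%), 8 and 1 with the block. ZEP, zeaxanthin epoxidase, was at 60.9, 65.8 and 58.5 CPM at ZT9, against 290.4, 254 and 400.3 CPM at ZT4. It fell (log2 fold change -2.32 ± 0.16, adjusted p = 3.3e-05), while NPQ1, the de-epoxidase of the opposite reaction, rose (log2 fold change 1.07 ± 0.17, adjusted p = 0.00314). SIG5, a sigma factor for chloroplast transcription, measured 5.13, 4.64 and 2.75 CPM in ZT9 seedlings and 34.6, 30.6 and 34.9 CPM in ZT4 seedlings. The groups did not overlap (log2 fold change -2.89 ± 0.21, adjusted p = 4.17e-05).

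Most genes known from dark and sugar starvation rose at ZT9. Of 29 tested, 18 rose (62.1%, against 11.2% of all genes), with a median log2 fold change of 0.94. The lower count was 0 (against 6.86%), also at an unadjusted p under 0.05 in limma and with edgeR and DESeq2. DRM2, a dormancy-associated gene, had 1118, 1033 and 1559.9 CPM in the ZT9 libraries, against 59.3, 54.7 and 128 CPM in the ZT4 libraries. The lowest ZT9 value was far above the highest ZT4 value (log2 fold change 4.02 ± 0.31, adjusted p = 5.66e-05). DYL1, its homologue, was at 670.0, 611 and 784 CPM at ZT9, against 41.6, 34.6 and 65.5 CPM at ZT4. DIN10, a raffinose synthase family gene induced in the dark, measured 633, 548 and 917 CPM in ZT9 seedlings and 98.1, 48.2 and 63.8 CPM in ZT4 seedlings. Neither gene's groups overlapped (log2 fold change 3.90 ± 0.21, adjusted p = 1.05e-05 for DYL1 and log2 fold change 3.34 ± 0.26, adjusted p = 7.26e-05 for DIN10). SEN1, a senescence and dark marker, had 201, 154 and 204 CPM in the ZT9 libraries, against 60.6, 34.6 and 44.2 CPM in the ZT4 libraries. It rose as well (log2 fold change 2.02 ± 0.20, adjusted p = 0.000236). AT3G15450 (log2 fold change 3.03 ± 0.30, adjusted p = 0.000275) and the kinase subunit gene AKINBETA1 (log2 fold change 1.62 ± 0.19, adjusted p = 0.000539) were among the others. ASN1, asparagine synthetase, had a log2 fold change of 0.94 ± 0.28 (adjusted p = 0.0501) and DIN11 a log2 fold change of 1.00 ± 0.63 (adjusted p = 0.321), and with the block their adjusted p was 0.000521 and 0.00142.

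Starch genes changed on both sides of the pathway. Of 17 starch breakdown genes 11 rose (64.7%, against 11.2% of all genes) and 1 fell (5.88%, against 6.86%), with a median of 0.92. GWD1, the kinase that phosphorylates starch and so opens it to breakdown, was at 679, 754 and 685 CPM at ZT9, against 166, 191 and 247 CPM at ZT4. PWD, which acts after it, measured 281, 302 and 271 CPM in ZT9 seedlings and 60.7, 62 and 74.9 CPM in ZT4 seedlings. Both were higher in every ZT9 library (log2 fold change 1.83 ± 0.15, adjusted p = 8.87e-05 for GWD1 and log2 fold change 2.11 ± 0.11, adjusted p = 6.98e-06 for PWD). BAM3, the main beta-amylase of leaves at night, had 81.7, 126 and 98.4 CPM in the ZT9 libraries, against 13.5, 17.7 and 17.5 CPM in the ZT4 libraries. The groups were apart (log2 fold change 2.60 ± 0.17, adjusted p = 2.6e-05), and 21.5% of its 84-base stretches lie opposite another transcript. PHS2 (log2 fold change 1.71 ± 0.21, adjusted p = 0.000754), the disproportionating enzyme DPE1 (means of 92.2 ± 0.858 CPM at ZT9 and 39.9 ± 3.6 CPM at ZT4, SD, n = 3 each, adjusted p = 6.75e-05 by limma), ISA3 (log2 fold change 1.13 ± 0.11, adjusted p = 0.000238) and the phosphatase SEX4 (log2 fold change 1.04 ± 0.12, adjusted p = 0.000607) rose too. BAM1 was the gene that fell (log2 fold change -0.58 ± 0.09, adjusted p = 0.00248). Of 14 starch synthesis genes 6 fell (42.9%, against 6.86% of all genes) and 3 rose (21.4%, against 11.2%). GBSS1, which makes amylose, was at 7.7, 9.41 and 4.62 CPM at ZT9, against 67.4, 67.7 and 56.2 CPM at ZT4. It fell without overlap (log2 fold change -3.10 ± 0.22, adjusted p = 4.34e-05), and the starch synthase SS2 fell less (log2 fold change -1.21 ± 0.12, adjusted p = 0.000244). The branching enzyme SBE2.1 (log2 fold change 1.54 ± 0.09, adjusted p = 1.36e-05) and PGM (log2 fold change 1.23 ± 0.14, adjusted p = 0.000565) rose. The lower count of the synthesis list was 3 without ZT9 replicates 1 or 2 or ZT4 replicates 1 or 3.

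**Figure D4:**
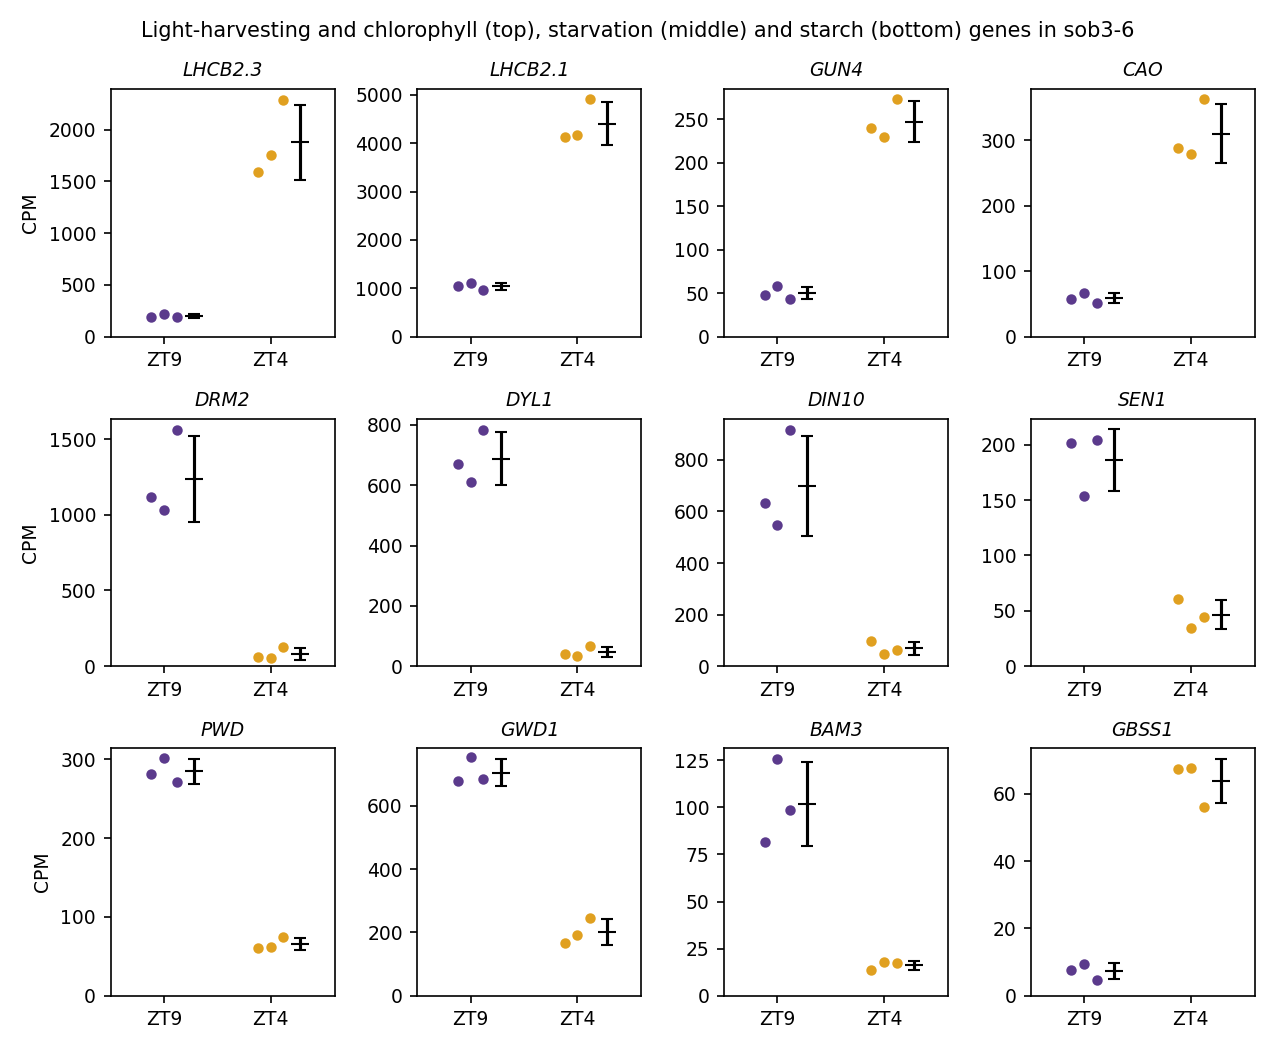
Level in CPM on linear axes of 12 genes in the sob3-6 libraries, ZT9 left and ZT4 right, points for the 3 libraries and bars for mean ± SD, in rows for light harvesting and chlorophyll, dark and starvation, and starch. LHCB2.3 lies at 188 to 220.3 CPM at ZT9 and 1586 to 2286 CPM at ZT4, and PWD at 271 to 302 CPM at ZT9 and 60.7 to 74.9 CPM at ZT4.

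Most cold and dehydration genes rose, at a growth temperature held at 22 °C. Of 12 tested, 7 rose (58.3%, against 11.2% of all genes) and 2 fell (16.7%, against 6.86%), with a median of 1.46. COR15A, a protein that protects chloroplast membranes in the cold, measured 475, 969 and 618 CPM in ZT9 seedlings and 42.7, 64.8 and 85.9 CPM in ZT4 seedlings. KIN1 had 286, 462 and 295 CPM in the ZT9 libraries, against 36.6, 49 and 39 CPM in the ZT4 libraries. RD29A was at 656, 1105 and 832 CPM at ZT9, against 269, 291 and 351 CPM at ZT4. All 3 were above their ZT4 values in each ZT9 library (log2 fold change 3.40 ± 0.30, adjusted p = 0.000121 for COR15A, log2 fold change 3.03 ± 0.19, adjusted p = 2.22e-05 for KIN1 and log2 fold change 1.48 ± 0.19, adjusted p = 0.00105 for RD29A). COR15B (log2 fold change 4.58 ± 0.30, adjusted p = 2.58e-05), COR6.6 (log2 fold change 2.69 ± 0.18, adjusted p = 3.37e-05), COR47 (log2 fold change 1.44 ± 0.18, adjusted p = 0.000967) and ERD10 (log2 fold change 0.85 ± 0.15, adjusted p = 0.00604) completed the 7. The count of 2 lower genes was 0 without ZT9 replicate 1 or ZT4 replicates 2 or 3, and 1 without ZT4 replicate 1. Of 12 touch and early stress genes 8 rose (66.7%, against 11.2% of all genes) and 0 fell (against 6.86%). There were 0 lower also at an unadjusted p under 0.05 in limma and with edgeR and DESeq2. TCH4, a xyloglucan-modifying enzyme induced by touch, measured 218, 268 and 463 CPM in ZT9 seedlings and 22.6, 18.5 and 22.8 CPM in ZT4 seedlings. The groups were apart (log2 fold change 3.79 ± 0.24, adjusted p = 2.38e-05). TCH3, a calmodulin-like protein, had 219, 208 and 185 CPM in the ZT9 libraries, against 61.2, 62.4 and 31.1 CPM in the ZT4 libraries. It rose as well (log2 fold change 2.04 ± 0.24, adjusted p = 0.000634), as did ERF6 (log2 fold change 1.67 ± 0.25, adjusted p = 0.00203). The count was 4 without ZT9 replicate 2 or ZT4 replicates 1 or 2.

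Cell wall genes went both ways, 5 of 17 higher (29.4%, against 11.2% of all genes) and 6 lower (35.3%, against 6.86%). EXPA1, an expansin that loosens walls, was at 63.3, 56.4 and 48.3 CPM at ZT9, against 190.4, 175 and 312 CPM at ZT4. It fell without overlap (log2 fold change -1.96 ± 0.21, adjusted p = 0.000357), and EXPA5 fell as well (log2 fold change -1.05 ± 0.13, adjusted p = 0.000712). XTH9 measured 250.5, 316 and 321 CPM in ZT9 seedlings and 69, 75.9 and 40.4 CPM in ZT4 seedlings. It rose (log2 fold change 2.29 ± 0.22, adjusted p = 0.000217), as did XTH30 (log2 fold change 1.36 ± 0.14, adjusted p = 0.000264). Of 12 aquaporin genes 6 fell (50%, against 6.86% of all genes) and 0 rose (against 11.2%). There were 0 higher also at an unadjusted p under 0.05 in limma and with edgeR and DESeq2. PIP2A, a plasma membrane water channel, had 226, 241 and 320.1 CPM in the ZT9 libraries, against 798, 763 and 859 CPM in the ZT4 libraries. All ZT9 values were below the ZT4 values (log2 fold change -1.63 ± 0.15, adjusted p = 0.000136). PIP1A (log2 fold change -1.07 ± 0.15, adjusted p = 0.0014) and PIP2B (log2 fold change -1.25 ± 0.14, adjusted p = 0.000437) fell too, with 13.8% of the 84-base stretches of PIP2B shared with another gene.

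Hormone genes changed in both directions. Of 16 brassinosteroid genes 6 rose (37.5%, against 11.2% of all genes) and 2 fell (12.5%, against 6.86%). BZR1, the transcription factor of the pathway, rose (log2 fold change 0.61 ± 0.10, adjusted p = 0.00292), as did SOB7, which inactivates brassinosteroids (log2 fold change 0.66 ± 0.14, adjusted p = 0.0115), and the biosynthesis gene BR6OX2 fell (log2 fold change -0.71 ± 0.12, adjusted p = 0.00367). The higher count was 3 without ZT9 replicate 2 or ZT4 replicate 2. Of 11 gibberellin genes 2 rose (18.2%, against 11.2% of all genes) and 1 fell (9.09%, against 6.86%), which in so short a list is near the shares of all genes. GID1A, a gibberellin receptor, rose (log2 fold change 0.74 ± 0.09, adjusted p = 0.000991), and GA2OX2, which inactivates gibberellin, rose (log2 fold change 1.56 ± 0.23, adjusted p = 0.00225). The gene that fell, GA2OX1, had no read in any ZT9 library and 0.703 to 1.55 CPM at ZT4, and its mean was below the filter of 0.5 CPM without any one ZT4 library. Of 23 AUX/IAA genes, repressors of auxin signalling, 2 rose (8.7%, against 11.2% of all genes) and 3 fell (against 6.86%), 6 and 3 with the block. IAA18 (log2 fold change 0.75 ± 0.12, adjusted p = 0.00317) and IAA4 (log2 fold change 0.72 ± 0.12, adjusted p = 0.00444) rose, and IAA17 fell (log2 fold change -0.56 ± 0.10, adjusted p = 0.00612). Only 1 fell without ZT9 replicates 1 or 2 or ZT4 replicates 2 or 3.

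Of 15 cell cycle genes 6 rose (40%, against 11.2% of all genes), 1 fell (6.67%, close to the 6.86% of all genes) and 8 did not pass, with a median of 0.46. CDKB1;2, a mitotic kinase, rose (log2 fold change 0.72 ± 0.15, adjusted p = 0.0114), and CYCD1;1, a cyclin of the start of the cycle, fell (log2 fold change -0.91 ± 0.13, adjusted p = 0.00194). The higher count was 1 without ZT9 replicate 2 and 3 without ZT9 replicate 1. Of 15 glucosinolate genes 3 fell (20%, against 6.86% of all genes) and 1 rose (6.67%, against 11.2%), 8 and 1 with the block. MYB29, a regulator of aliphatic glucosinolates, was at 1.67, 2.63 and 1.75 CPM at ZT9, against 12.5, 19.4 and 9.32 CPM at ZT4. It fell (log2 fold change -2.46 ± 0.28, adjusted p = 0.000468), with MYB28 (log2 fold change -1.13 ± 0.14, adjusted p = 0.00078) and MYB34 (log2 fold change -1.11 ± 0.15, adjusted p = 0.00115). Of 17 flavonoid genes 1 fell (5.88%, close to the 6.86% of all genes) and 0 rose (0 higher also at an unadjusted p under 0.05 in limma and with edgeR and DESeq2). With the block 9 fell and 1 rose. The one that fell without the block was UGT78D1 (log2 fold change -1.22 ± 0.14, adjusted p = 0.000619). The flavonoid count reached 5 lower without ZT4 replicate 3. Of 10 nitrate and sulfate assimilation genes 0 passed in either direction with limma (3 higher and 1 lower at an unadjusted p under 0.05, 1 lower with edgeR's quasi-likelihood test, and 1 higher and 1 lower with its exact test and with DESeq2), and 2 rose and 1 fell with the block.

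The change in sob3-6 was next set against that in SOB3-D seedlings harvested at the same times. The limma interaction term, the ZT9 minus ZT4 change in sob3-6 minus that in SOB3-D, passed for 199 of 20546 genes (0.969%), and for 205 genes (0.998%) when any transcript counted. The sob3-6 change was the more positive for 135 of the 199 and the more negative for 64. The any-transcript count was 98 without sob3-6 ZT9 replicate 2, 111 without SOB3-D ZT4 replicate 3, 112 without SOB3-D ZT9 replicate 1, 119 without sob3-6 ZT4 replicate 1 and 379 with the replicate block. The genes named next passed in every one of the 12 fits with 1 library left out, except where a value is given.

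Of 48 photosystem and light-harvesting genes, 6 passed the interaction test (12.5%, against 0.969% of all genes), and of 30 chlorophyll synthesis genes 3 did, each with a smaller decrease in sob3-6 than in SOB3-D. In SOB3-D, LHCB2.3 had 32.6, 35.9 and 34.5 CPM at ZT9 and 1316, 1313 and 1402 CPM at ZT4. The log2 fold change was -3.22 in sob3-6 and -5.27 in SOB3-D (difference 2.05 ± 0.17, adjusted p = 0.000194). LHCB2.1 (difference 1.82 ± 0.16, adjusted p = 0.000238), LHCB2.2 (difference 1.87 ± 0.16, adjusted p = 0.000194) and LHCB4.2 (difference 1.54 ± 0.16, adjusted p = 0.000855) differed in the same direction. In SOB3-D, GUN4 had 22.4, 23 and 23.1 CPM at ZT9 and 267, 292 and 269 CPM at ZT4, a log2 fold change of -3.57 against -2.30 in sob3-6 (difference 1.26 ± 0.15, adjusted p = 0.00175). HEMA1 differed likewise (difference 0.86 ± 0.14, adjusted p = 0.0106).

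PIF4 was near its ZT4 level in sob3-6 and not in SOB3-D. SOB3-D seedlings had 50.7, 60.2 and 53.2 CPM at ZT9 and 141, 139.6 and 132 CPM at ZT4 of PIF4. The log2 fold change was -0.25 in sob3-6 and -1.33 in SOB3-D (difference 1.08 ± 0.15, adjusted p = 0.00609). The B-box genes BBX22 (difference 0.93 ± 0.15, adjusted p = 0.00898) and BBX24 (difference 0.94 ± 0.16, adjusted p = 0.0123) had a less negative change in sob3-6. For GI the log2 fold change was 0.49 in sob3-6 and -0.99 in SOB3-D (difference 1.48 ± 0.26, adjusted p = 0.0149), and it missed the test without sob3-6 ZT9 replicate 2 (adjusted p = 0.053 there). CDF3 fell less in sob3-6 (difference 1.28 ± 0.21, adjusted p = 0.0102) and JMJD5 rose less (difference -1.17 ± 0.14, adjusted p = 0.00201).

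Of 29 dark and starvation genes 7 passed the interaction test (24.1%, against 0.969% of all genes). Of these only SEN1 passed in every fit with 1 library left out, and its increase was smaller in sob3-6. In SOB3-D, SEN1 had 186, 91.6 and 179 CPM at ZT9 and 7.21, 3.34 and 2.33 CPM at ZT4. Its ZT4 level was thus 34.6 to 60.6 CPM in sob3-6, against 2.33 to 7.21 CPM in SOB3-D, while the ZT9 ranges overlapped (difference -3.04 ± 0.48, adjusted p = 0.00919). XTH4 of the cell wall list also had a smaller log2 fold change in sob3-6 (0.41) than in SOB3-D (1.58, difference -1.17 ± 0.19, adjusted p = 0.0106). BAM3 differed in the other direction. In SOB3-D it had 115, 118 and 103 CPM at ZT9 and 42.2, 60.4 and 64.5 CPM at ZT4, a log2 fold change of 1.02 against 2.60 in sob3-6 (difference 1.58 ± 0.25, adjusted p = 0.00898).

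Of the 12 cold and dehydration genes, 5 (41.7%, against 0.969% of all genes) passed the interaction test, all with a more positive change in sob3-6, and COR15B was among those that did not (adjusted p = 0.26). In SOB3-D, KIN1 had 79, 130.2 and 133 CPM at ZT9 and 95.7, 55.7 and 77.8 CPM at ZT4, with overlapping groups. The log2 fold change was 3.03 in sob3-6 and 0.57 in SOB3-D (difference 2.46 ± 0.34, adjusted p = 0.0049). In SOB3-D, RD29A had 126, 210.0 and 184 CPM at ZT9 and 299, 245 and 315 CPM at ZT4, so that the direction of its log2 fold change (-0.75) was opposite to that in sob3-6 (1.48, difference 2.23 ± 0.29, adjusted p = 0.00298). COR6.6 (difference 1.65 ± 0.29, adjusted p = 0.0153) and ERD10 (difference 1.26 ± 0.21, adjusted p = 0.0129) differed in the same direction. Of 16 morning clock genes 3 passed the interaction test (18.8%, against 0.969% of all genes), and of 15 evening clock genes 3 did (20%). Of these only JMJD5 passed in every fit with 1 library left out. The clock genes CCA1 (difference 1.68 ± 0.40, adjusted p = 0.0753), TOC1 (difference 0.11 ± 0.14, adjusted p = 0.914), LUX (difference 0.22 ± 0.15, adjusted p = 0.746) and PRR9 (difference 0.42 ± 0.40, adjusted p = 0.844) did not pass this test, which does not show that their changes were equal.

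**Figure D5:**
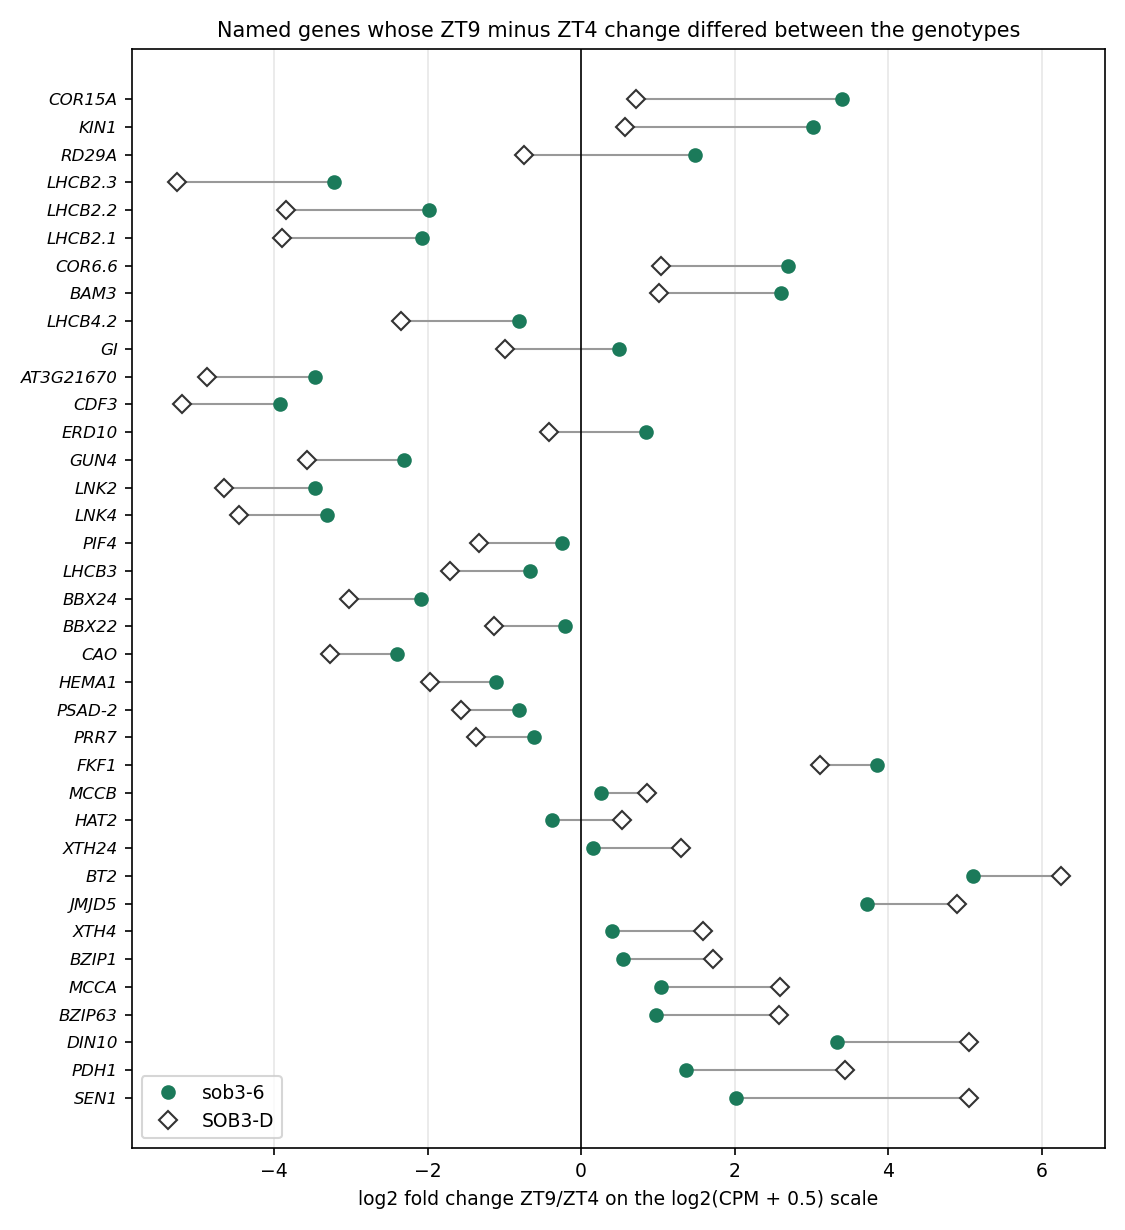
Log2 fold change ZT9 over ZT4 of the 37 named genes whose change differed between the lines, with sob3-6 as filled circles and SOB3-D as open diamonds and 1 row for each gene. For LHCB2.3 the values are -3.22 in sob3-6 and -5.27 in SOB3-D, and for RD29A they are 1.48 in sob3-6 and -0.75 in SOB3-D.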

How the data were processed

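Poly(A) RNA of whole seedlings was sequenced by the authors with a stranded kit as single reads of 84 or 86 bases, and reads were mapped to TAIR10 transcript sequences with Bowtie (version not given in the sources used here), keeping every best hit. The deposited signal per transcript is in reads per 1000000 mapped reads, called CPM here, and it sums to 1546178 to 1558469 in the 6 libraries because a read with several best hits counts at each. All values came out as whole reads within a tolerance of 0.01. Whether the counting used strand is not given in the sources used here.

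From the deposited signal, the 28241 transcripts that averaged 0.5 CPM or more across the 6 libraries were tested on log2(CPM + 0.5) with limma 3.58.1 in R 4.3.3, with a trend in the variance, two-sided, Benjamini-Hochberg adjusted over all transcripts tested. Fold changes are on that scale, which understates the change of low genes, and ± beside them is 1 SE. The transcript with the highest mean stands for a gene. The interaction was fitted over 12 libraries. Organelle transcripts (208) stayed out of gene counts. Named were, for each direction, the 12 genes that changed most while passing with no overlap, all clock list members tested, and in other lists the called members with the largest change or a needed role; the members and lists were chosen with earlier results of these data known, and some list members outside that rule were chosen after their values were seen. Alternatives covered pseudocounts, filters, TMM, edgeR 4.0.16 and DESeq2 1.42.0 on the recovered reads, all 18 libraries, the replicate block and leaving out libraries. On simulated data for the ZT9 against ZT4 comparison, limma recovered 185 of 200 transcripts changed 2-fold among 28210, with 10 false calls, and in a simulated interaction 98 of 200 with 3 false calls. The changed transcripts were drawn only from the more highly expressed ones, with a fixed dispersion of 0.02 and no replicate effect. Recovery of low transcripts was thus not measured.

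Replicate numbers come from the labels. Deviations from the group means correlated at 0.259, 0.132 and 0.361 between ZT9 and ZT4 libraries of the same number. Between different numbers they correlated at -0.290 to 0.103. The support for pairing is weak, because 0.132 is close to 0.103. Deviations within a group also cancel, which ties the unmatched values to the matched ones. The numbers were used as pairs only in the fits with the replicate block. The main counts and p-values, those of the interaction included, came from fits without it. The paper states that both genotypes of a replicate set shared plates, and the main interaction fit took no account of that. Shared stretches were counted as 84-base runs of the RefSeq transcript sequence found in another gene on the same or the opposite strand. No transcript named here was left out by hand, and the ZT24 libraries entered only as levels and in 1 alternative.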

Additional observations from a re-analysis of the deposited data

Results flagged for a closer look

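For 37 named genes the ZT9 minus ZT4 change differed between sob3-6 and SOB3-D by the limma interaction test at an adjusted p under 0.05. Each value is the log2 change in sob3-6 minus that in SOB3-D, and the 2 lines' own changes are drawn in the plot of log2 fold changes by genotype. Among light-harvesting and photosystem genes it was 2.05 for LHCB2.3, 1.87 for LHCB2.2, 1.82 for LHCB2.1, 1.54 for LHCB4.2, 1.05 for LHCB3 and 0.76 for PSAD-2. Among chlorophyll genes it was 1.26 for GUN4, 0.88 for CAO and 0.86 for HEMA1. All of these changes were less negative in sob3-6.

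Among cold and dehydration genes the difference was 2.68 for COR15A, 2.46 for KIN1, 2.23 for RD29A, 1.65 for COR6.6 and 1.26 for ERD10, and for the starch gene BAM3 it was 1.58. Dark and starvation genes went the other way, with -3.04 for SEN1, -2.06 for PDH1, -1.72 for DIN10, -1.60 for BZIP63, -1.55 for MCCA, -1.18 for BZIP1 and -0.60 for MCCB. Cell wall and growth genes in the same direction were XTH4 with -1.17, XTH24 with -1.14 and HAT2 with -0.91.

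Among clock and output genes the difference was 1.48 for GI, 1.28 for CDF3, 1.19 for LNK2, 1.15 for LNK4, 0.76 for PRR7, 0.74 for FKF1 and -1.17 for JMJD5. It was 1.08 for PIF4, 0.94 for BBX24 and 0.93 for BBX22. Among the genes with the largest change between the times, AT3G21670 had 1.41 and BT2 -1.14.

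Of the 37 genes, 18 passed in all 12 fits with 1 library left out, and the other 19 missed the threshold in at least 1 of them, PSAD-2, PDH1, MCCB, HAT2 and FKF1 passing in only 2. The fit without sob3-6 ZT9 replicate 2 lost all 19, the one without SOB3-D ZT4 replicate 3 lost 16 and the one without sob3-6 ZT4 replicate 1 lost 14. With edgeR's quasi-likelihood test the adjusted p was above 0.05 for 6 of the 37, namely PRR7, PSAD-2, PDH1, BZIP63, MCCB and COR15A.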

How the results depend on the processing

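Of 139 named genes that passed, 127 passed in all 19 other fits at an adjusted p under 0.05, and 5 (GA2OX1, RUP1, SAUR19, SAUR23 and SAUR71) passed in those fits that tested them, a filter leaving them out of the rest, GA2OX1 of 6 of the 19. None changed direction. The 7 others were RVE1, ASG4, AT4G01280, LKP2, HAT2, PDH1 and BZIP1. Leaving out 1 library gave 2373 to 3342 genes changed in sob3-6 (1371 to 2091 higher and 984 to 1251 lower), against 3776, with the lowest total without ZT9 replicate 2. An adjusted p under 0.01 left 1882 genes (1119 higher and 763 lower), and an adjusted p under 0.05 with a fold change of at least 2 left 1090 (558 higher and 532 lower). The split moved, with 62.2% of calls higher in limma, 52.8% with TMM scaling, which changes nothing else, and, with scaling and model both changed, 51.9% with edgeR's exact test and 49.0% with DESeq2.

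With the replicate block, 5313 genes passed, 3290 higher and 2023 lower, and with the block in edgeR's quasi-likelihood test 4875, of which 2356 were lower. The block added RVE7, GI, TCP21, LHCB3, ASN1, DIN11, XTH4 and KAT1 among named genes and removed none. For the interaction, 379 genes passed with the block, 308 with all 18 libraries in the fit, and 98 to 225 with 1 library left out, against 205. These fits differ in the samples or the spread they use, and the cause of each shift was not tested. Depth limits genes near the floor of 3 reads, such as CCA1 at ZT9, whose fold change moves with the pseudocount. The fit without replicate 3 of both times was chosen after seeing the data.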

Other observations

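Gene families were also counted by the words of their RefSeq product, chosen after their values were seen, so the counts are a description. Of all genes 11.2% rose and 6.86% fell. Of 19 genes with B-box in that product name, regulators of light responses and flowering, 8 rose and 9 fell, BBX20 and BBX24 of the light-signalling list included and BBX25, which is annotated under another name, not counted. Those that rose included BBX8 (log2 fold change 3.62), BBX17 (2.13) and BBX13 (1.81), and those that fell included BBX29 (-3.17), BBX28 (-2.82) and BBX18 (-2.52). Of 63 GDSL lipase genes, many of them active at the cell surface, 22 (34.9%) fell and 4 rose, the largest decreases being those of AT1G56670 (-2.26) and RXW8 (-2.13). Among the 22, AT1G58725 and AT1G59406 had the same values in every library, so the same reads may count for both.

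Of 42 histone genes 14 rose (33.3%) and 1 fell, and of 27 kinesin genes 10 rose (37.0%). Of 15 genes for proteins of the transcriptionally active plastid chromosome 6 rose. PTAC17 had 95.8, 103 and 109.8 CPM at ZT9, against 28.3, 32.5 and 40.5 CPM at ZT4, with no overlap. Pentatricopeptide repeat proteins act on organelle RNA. Of 262 genes with pentatricopeptide or the letters PPR in that product name, 33 rose and 5 fell (54 and 6 with the replicate block). The 33 are 12.6%, close to the 11.2% of all genes. The letters also matched inside other words, so the 33 include AT1G33410, named SUPPRESSOR OF AUXIN RESISTANCE1. Of 317 genes with ribosomal protein in that product name 7 rose (2.21%, below the share of all genes) and 1 fell. With the replicate block 41 rose and 2 fell. The gene that fell, AT3G12915, is named Ribosomal protein S5/Elongation factor G/III/V family protein, so not every match need be a ribosomal protein.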
